A study of Mus musculus with 23 samples.

Results

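The sperm genome is packed by the protamines, encoded in the mouse by Prm1 and Prm2, which take the place of the transition proteins, encoded by Tnp1 and Tnp2. Together with Prm3, named for its place in the same gene cluster, these 5 genes were taken by name, and all 5 were found among the 27466 genes of the count table. RNA was sequenced from testes of CD-1 mice aged 6.5 days postpartum (dpp), 10.5 dpp, 22.5 dpp or 36.5 dpp, and from testis explants of 6.5 dpp mice cultured for 4, 16 or 30 days (D4, D16 and D30). No allele or transgene is named for any group. Explants grew in α-MEM with KnockOut serum replacement and retinol, their central necrotic area was removed before RNA extraction, and 12 explants were pooled for each replicate. Tissue was fresh, except for 3 libraries at 6.5 dpp and 1 at D30 that came from controlled slow frozen (CSF) tissue. The study's design counts fewer frozen samples at 6.5 dpp than the 3 libraries that carry that label, and all 3 were used. Frozen libraries were grouped with fresh ones, as the study did for its comparisons over time. This gave 4 libraries for 6.5 dpp and for D30, 3 for 10.5 dpp, 22.5 dpp and D4, and 2 for 36.5 dpp and D16.

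Spermatids replace most of their histones in steps. Histone variants and acetylation loosen the nucleosomes, transition proteins enter the nucleus of the elongating spermatid, and the arginine-rich protamines then compact the DNA into the sperm head. The messenger RNAs are made earlier, in round spermatids, under the activator CREM, and are stored as repressed particles until the elongating stage. In the mouse the testis passes through its initial wave of spermatogenesis after birth, so spermatids and their transcripts are absent from the youngest testes and appear with age. Prm1 encodes the protamine shared by mammals. Prm2 encodes a precursor that is cleaved to the mature protamine. Prm3, an intronless gene lying between Prm2 and Tnp2, encodes an acidic protein rather than an arginine-rich one. Tnp1 and Tnp2 encode the main transition proteins, and Tnp2 binds zinc.

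Prm1 (Entrez 19118), Prm2 (19119), Prm3 (19120) and Tnp2 (21959) lie together on chromosome 16 within 8.89 kb (chr16:10787935-10796823, GRCm38.p6), all on the minus strand. Tnp1 (21958) lies alone on the minus strand of chromosome 1 (chr1:73015074-73015899). Prm1, Prm2, Tnp1 and Tnp2 have 2 exons each in GENCODE, and Prm3 has 1. Since the 5 genes moved together across the samples, the 120 bases before each transcription start (RefSeq, GRCm38.p6) are shown from 5′ to 3′ on the gene's strand. Capitals mark every match, within the 250 bases searched, to 5 motifs on either strand: the cAMP response element TGACGTCA, the same element with any base at position 5 (TGACNTCA), its shorter core TGACG, the TATA box TATAAA and the repeat TATATA.
Prm1 (chr16:10796824-10796943, minus strand): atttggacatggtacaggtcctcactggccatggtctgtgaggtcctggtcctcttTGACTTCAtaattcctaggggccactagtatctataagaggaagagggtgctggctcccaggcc
Prm2 (chr16:10792106-10792225, minus strand): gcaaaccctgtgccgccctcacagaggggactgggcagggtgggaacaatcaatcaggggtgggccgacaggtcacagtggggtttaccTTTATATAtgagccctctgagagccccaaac
Prm3 (chr16:10790915-10791034, minus strand): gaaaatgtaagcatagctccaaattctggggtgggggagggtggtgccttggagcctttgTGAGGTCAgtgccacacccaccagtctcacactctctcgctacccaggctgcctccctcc
Tnp1 (chr1:73015900-73016019, minus strand): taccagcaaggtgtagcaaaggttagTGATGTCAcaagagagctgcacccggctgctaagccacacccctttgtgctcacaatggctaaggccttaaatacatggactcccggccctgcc
Tnp2 (chr16:10788656-10788775, minus strand): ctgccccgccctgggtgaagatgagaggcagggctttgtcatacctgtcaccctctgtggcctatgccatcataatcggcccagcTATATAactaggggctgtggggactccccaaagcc

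The response element with 1 free base was found in 3 of the 5 windows. In Prm1 it covered bases 64 to 57 before the start on the gene's own strand, and in Prm3 and Tnp1 it lay on the opposite strand, at bases 60 to 53 and 94 to 87. Of 32851 promoter windows of the same length in the table, 7.49% held it. The exact element TGACGTCA (1.55% of windows) and the core TGACG (17.8%) were in none of the 5. Prm2 held the TATA box on the opposite strand at bases 31 to 26 (12.4% of windows), overlapping the repeat TATATA at bases 29 to 24. Tnp2 held TATATA at bases 35 to 30 (5.25% of windows). These are matches of letters, and no binding was measured.

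The 21 libraries used held between 28351546 and 69029328 counts, and 19255 genes passed the filter on low counts, all 5 genes of interest among them. The library labelled 6.5 dpp fresh replicate 1 was left out: its counts were most like those of D16 replicate 1 (Spearman's rho across genes 0.985, against at most 0.872 with its own group). 6.5 dpp fresh replicate 3 was identical to replicate 2 and was counted with it as 1 sample. D16 replicate 1, D16 replicate 2 and D30 fresh replicate 3 were each nearer to a library of the other of these culture days than to their own group. A gene was called changed where its log2 fold change was 2 or more in size and its adjusted p no higher than 0.001 (edgeR's quasi-likelihood test, with p-values adjusted by Benjamini-Hochberg across the 19255 genes). Background shares given below count edgeR calls by this rule. No such share was computed for unadjusted p-values or for DESeq2 calls. Nothing in the sources states how many animals a library came from, so p-values measure the spread between these samples. With library size in place of TMM factors the median of all genes moved by 0.64 on the log2 scale for D30 against 36.5 dpp, by -0.51 for 36.5 against 22.5 dpp and by -0.29 for 22.5 against 10.5 dpp. The called genes were then 3354 higher and 1616 lower in place of 1488 and 2613 for D30 against 36.5 dpp, 1397 and 921 in place of 1707 and 199 for 36.5 against 22.5 dpp, and 2625 and 1070 in place of 2917 and 620 for 22.5 against 10.5 dpp. For the change in culture minus the change in vivo they were 211 and 149 in place of 52 and 269.

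In vivo, the 5 genes had at most 2.68 CPM each (counts scaled by the library total) at 6.5 and 10.5 dpp and 0.241 to 12.2 CPM at 22.5 dpp, and made up 2.14% and 1.64% of all counts in the 2 libraries at 36.5 dpp. RNA was taken from whole testes or from pooled explants without their necrotic centre, not from separated cells. Fewer spermatids and less RNA per spermatid thus cannot be told apart in any comparison below.

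Prm1 had 0.877 CPM in the fresh library at 6.5 dpp and 0.229, 0.122 and 0.0353 CPM in the 3 frozen ones. It had 0.808, 0.111 and 0.928 CPM at 10.5 dpp, 3.70, 0.307 and 4.33 CPM at 22.5 dpp, and 5161 and 3144 CPM at 36.5 dpp. The ranges of neighbouring ages overlapped up to 22.5 dpp, because replicate 2 at 22.5 dpp lay below replicates 1 and 3 at 10.5 dpp, and both libraries at 36.5 dpp stood far above every other.

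Prm2 had 1.94 CPM in the fresh library at 6.5 dpp and 0.291, 0.170 and 0.0353 CPM in the frozen ones. It had 0.898, 0.0834 and 1.64 CPM at 10.5 dpp, 6.18, 0.548 and 7.78 CPM at 22.5 dpp, and 7235 and 7613 CPM at 36.5 dpp. The same replicate, 22.5 dpp replicate 2, was again the low one of its age, and the libraries at 36.5 dpp differed little (mean 7424 ± 267 CPM, SD, n = 2).

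Prm3 was read 6 times in the fresh library at 6.5 dpp (0.125 CPM) and not at all in the 3 frozen ones, where a count of 0 allows up to 0.0624, 0.0730 and 0.106 CPM. At 10.5 dpp it had 1, 0 and 3 counts. It had 2.59, 0.241 and 4.62 CPM at 22.5 dpp and 173 and 216 CPM at 36.5 dpp. Each library at 22.5 dpp thus lay above each younger one, which held for Prm3 and not for Prm1, Prm2 or Tnp1.

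Tnp1 had 0.981 CPM in the fresh library at 6.5 dpp and 0.603, 0.997 and 2.68 CPM in the frozen ones. It had 1.10, 0.501 and 1.15 CPM at 10.5 dpp, 7.39, 0.483 and 12.2 CPM at 22.5 dpp, and 4857 and 2906 CPM at 36.5 dpp. In frozen replicate 3 at 6.5 dpp it had 76 counts beside 1 each of Prm1 and Prm2, and in the 3 frozen libraries it was 54.7% to 93.2% of the summed CPM per kb of transcript of the 5 genes, against 24.6% in the fresh library.

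Tnp2 had 0.877 CPM in the fresh library at 6.5 dpp and 0.104, 0.0730 and 0.176 CPM in the frozen ones. It had 0.539, 0.139 and 0.618 CPM at 10.5 dpp, 5.39, 1.43 and 7.81 CPM at 22.5 dpp, and 3946 and 2546 CPM at 36.5 dpp. Its libraries at 22.5 dpp lay above all younger ones.

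**Figure D1:**
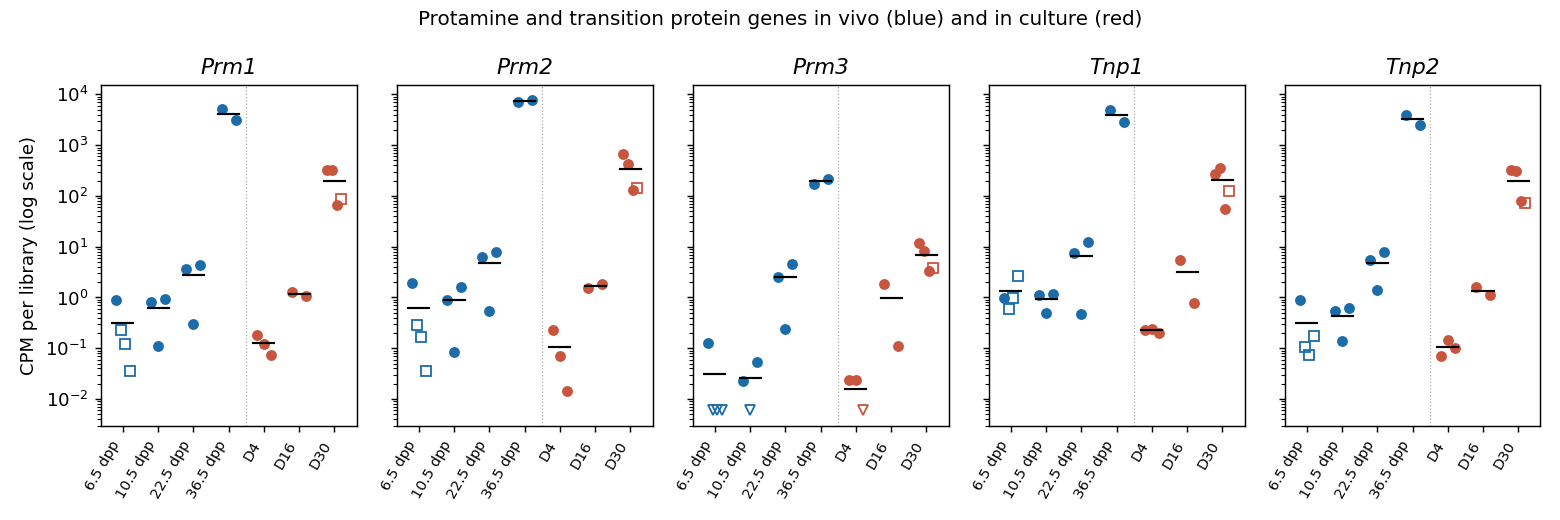
CPM of each of the 5 genes in each library on a log axis, in vivo in blue and in culture in red. Circles are fresh and open squares frozen tissue, open triangles at the lower edge mark libraries with 0 counts, and short lines are group means. The 2 libraries at 36.5 dpp lie above the 4 at D30 for all 5 genes, and for Prm3 alone the libraries at D30 overlap those at 22.5 dpp.

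Between 6.5 and 10.5 dpp none of the 5 genes was called, none had an unadjusted p under 0.05 and DESeq2 called 0 (0.0104% of all genes tested were called higher and 0.0104% lower). The log2 fold changes ran from -0.56 (Tnp1, or 0.09 without frozen replicate 3 at 6.5 dpp) to 0.86 (Prm1), with no fold given for Prm3, which had at most 6 counts in any of these libraries. For Prm1, Prm2, Prm3 and Tnp2 the fresh library at 6.5 dpp was the highest of its 4.

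Between 10.5 and 22.5 dpp all 5 genes had higher fitted levels and 2 were called, at a background of 15.1% of genes called higher and 3.22% lower. Prm3 rose from 4 counts over the 3 libraries at 10.5 dpp to 255 at 22.5 dpp, a ratio of pooled CPM of 75.0 (95% interval 29.0 to 278, counting error only; edgeR adjusted p = 3.06e-04). Tnp2 rose 13.6-fold (log2 fold change 3.77, SE 0.84, edgeR adjusted p = 8.58e-04). Tnp1, Prm2 and Prm1 had log2 fold changes of 3.19 (SE 0.95), 2.76 (SE 1.05) and 2.46 (SE 0.91), with edgeR adjusted p-values of 0.00747, 0.0297 and 0.0256. Their ranges at the 2 ages overlapped through 22.5 dpp replicate 2. The 2 calls were lost without any single library of 10.5 dpp or without 22.5 dpp replicate 3 (0 called in each case), 1 was left without 22.5 dpp replicate 1, and 3 were called without 22.5 dpp replicate 2. No call was left with 6.5 dpp fresh replicate 1 kept in the fit or with only the 2 ages in it.

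From 22.5 to 36.5 dpp all 5 genes rose and all 5 were called (background 8.87% higher, 1.03% lower). Prm2 rose 2122-fold (log2 fold change 11.05, SE 1.43, edgeR adjusted p = 1.19e-05) and Prm1 2068-fold (11.01, SE 1.21, adjusted p = 2.06e-06). By size of log2 fold change they were the 12th and 13th of the 19255 genes. Tnp2 rose 924-fold (9.85, SE 1.02) and Tnp1 799-fold (9.64, SE 1.22), at ranks 39 and 42. Prm3 rose 109-fold (6.77, SE 1.01, edgeR adjusted p = 5.08e-05), at rank 237. Without 22.5 dpp replicate 3 the log2 fold changes were 7.58 for Prm3 and 10.39 for Tnp1, both still called.

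Compared per kb of transcript, the 5 genes changed their proportions as they rose. At 22.5 dpp Tnp1 was 33.3%, 19.0% and 37.2% of the summed CPM per kb in the 3 libraries, and Tnp2 19.1%, 44.3% and 18.8%. Tnp1 thus led in replicates 1 and 3 and Tnp2 in replicate 2. Prm2 was 19.6%, 15.2% and 16.7%, Prm1 15.5%, 11.3% and 12.3%, and Prm3 at least 10.1%. At 36.5 dpp Prm2 was 28.2% and 39.9%, Prm1 26.6% and 21.8%, Tnp1 26.9% and 21.6%, Tnp2 at most 17.2%, and Prm3 1.02% and 1.71%. Prm3 was thus about level with Prm1 at 22.5 dpp, at 0.803, 0.915 and 1.22 times its level per kb, and at 0.0383 and 0.0785 times its level at 36.5 dpp. The ranges of the ages did not overlap. This shift was noticed in the data and was not tested.

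In culture the same genes were lowest at D4 and highest at D30. Prm1 had 8, 5 and 5 counts at D4 (0.0724 to 0.186 CPM), 1.26 and 1.09 CPM at D16, and 328, 318 and 67.2 CPM in the fresh and 87.8 CPM in the frozen explants at D30. The 3 culture days did not overlap, and at D30 fresh replicate 3 and the frozen library were the low pair.

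Prm2 had 0.232, 0.0719 and 0.0145 CPM at D4, 1.56 and 1.86 CPM at D16, and 680, 432 and 129 CPM in the fresh and 145 CPM in the frozen explants at D30. Prm3 had 1, 1 and 0 counts at D4, 1.81 and 0.109 CPM at D16, and 11.7, 8.26 and 3.38 CPM in the fresh and 3.89 CPM in the frozen explants at D30. The 2 libraries at D16 were alike for Prm2 and unlike for Prm3, which had 72 counts in replicate 1 and 5 in replicate 2.

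Tnp1 had 0.232, 0.240 and 0.203 CPM at D4, 5.46 and 0.787 CPM at D16, and 269, 359 and 56.1 CPM in the fresh and 124 CPM in the frozen explants at D30. Tnp2 had 0.0697, 0.144 and 0.101 CPM at D4, 1.58 and 1.14 CPM at D16, and 324, 314 and 78.9 CPM in the fresh and 74.0 CPM in the frozen explants at D30. The frozen library at D30 lay within the range of the 3 fresh ones for Prm1, Prm2, Prm3 and Tnp1 and just below their lowest for Tnp2. With 1 frozen library at D30 the freezing itself was not tested.

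Between D4 and D16 no gene of the 5 was called by edgeR at the threshold of 0.001, while all 5 had an unadjusted p under 0.05 and DESeq2 called 2, Tnp1 and Tnp2 (background 7.61% higher, 0.254% lower). The fitted log2 fold changes were 3.31 (SE 1.18) for Prm1, 4.16 (SE 1.42) for Prm2, 3.85 (SE 1.12) for Tnp1 and 3.72 (SE 1.05) for Tnp2. The edgeR adjusted p-values of the 5 genes lay between 0.00947 and 0.0495. For Prm3 the pooled ratio of D16 to D4 was 69.2 (95% interval 18.5 to 582, counting error only), from 77 counts against 2, and 72 of the 77 counts came from D16 replicate 1.

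Between D16 and D30 none of the 5 was called by edgeR, at a background of 0.00519% of genes called higher and 0% lower. All 5 had an unadjusted p under 0.05 and DESeq2 called 4, for which no share of all genes was computed. Prm2 had a log2 fold change of 7.72 (SE 1.50, edgeR adjusted p = 0.0120), a 211-fold higher fitted level at D30, and stood 17th of the 19255 genes by size. Prm1 had 7.47 (SE 1.26, edgeR adjusted p = 0.00471), Tnp2 7.24 (SE 1.10, edgeR adjusted p = 0.00372) and Tnp1 6.06 (SE 1.23, edgeR adjusted p = 0.0163). For these 4 genes every library at D30 lay above both at D16. Prm3 also did not overlap between the days, with a log2 fold change of 2.88 (SE 1.00, edgeR adjusted p = 0.191), and it was the gene of the 5 that DESeq2 did not call. The share of all genes without overlap between these days was not computed.

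The 2 libraries at D16 differed in the make-up of these genes. In replicate 1 Tnp1 was 50.0% of the summed CPM per kb and Prm3 17.7%, as against 19.1% and 2.82% in replicate 2, where Prm2 (31.7%) and Prm1 (24.7%) led. The 11 early spermatid genes on the list used here (among them Acrv1, Spaca1 and Izumo1, genes of the acrosome and of sperm and egg fusion) summed to 155 CPM in replicate 1 and 7.30 CPM in replicate 2, as against 5.48 to 6.42 CPM at 10.5 dpp and 53.2 to 227 CPM at 22.5 dpp. In the fresh library at 6.5 dpp, whose early spermatid genes summed to 3.99 CPM, Prm2 (34.2%) and Tnp1 (24.6%) led. The part of spermatid content in these proportions was not tested.

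**Figure D2:**
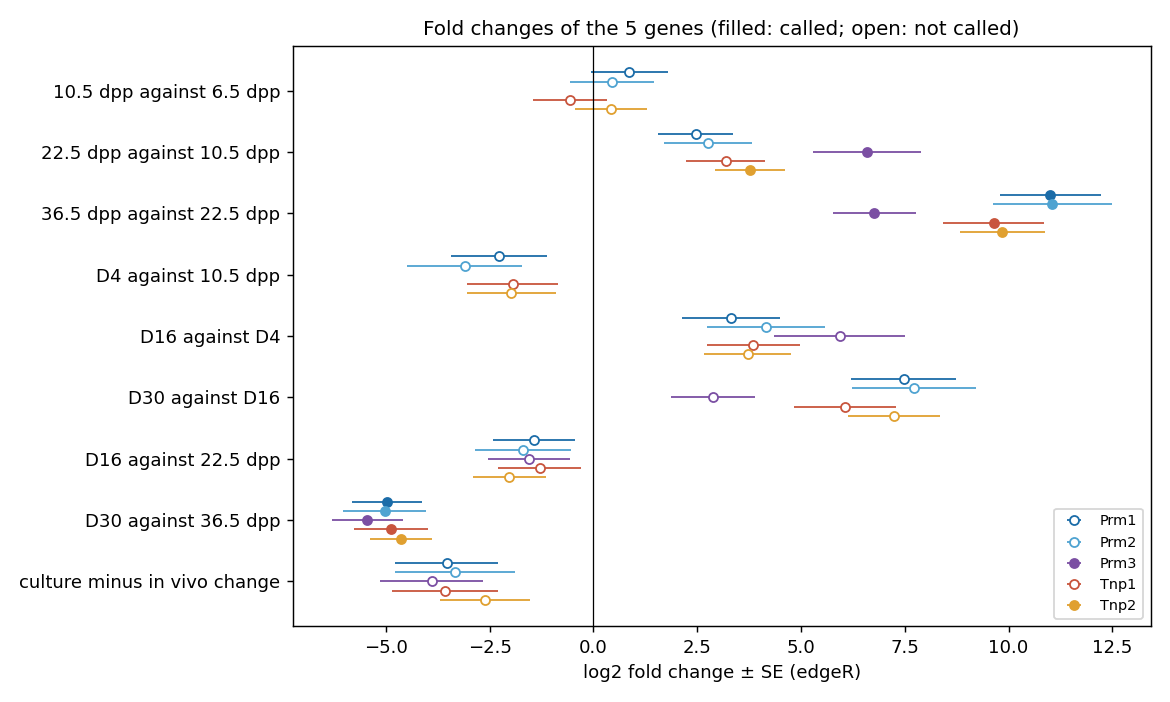
log2 fold change (edgeR) with a standard error derived from the test's F statistic, for each gene in each of the 9 comparisons, filled where called and open where not. The points for Prm3 in 10.5 dpp against 6.5 dpp and in D4 against 10.5 dpp are left out because its counts were at most 6. All 5 genes are called in 36.5 dpp against 22.5 dpp and in D30 against 36.5 dpp, and in the former Prm3 (6.77) lies apart from the other 4 genes (9.64 to 11.05).

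Each culture day was set against the age it corresponds to. At D4 none of the 5 genes was called against 10.5 dpp by edgeR, 1 had an unadjusted p under 0.05 (Prm2) and DESeq2 called 0 (background 0.691% higher, 0.379% lower). The log2 fold changes were -2.28 (SE 1.15) for Prm1, -3.10 (SE 1.38) for Prm2, -1.95 (SE 1.09) for Tnp1 and -1.98 (SE 1.07) for Tnp2, with edgeR adjusted p-values from 0.218 to 0.368. Prm3 had at most 3 counts in each of these 6 libraries, and no fold is given. Tnp1 did not overlap between the groups, while Prm1, Prm2 and Tnp2 overlapped through 10.5 dpp replicate 2.

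At D16 all 5 genes had lower fitted levels than at 22.5 dpp and none was called by edgeR. Of the 5, 1 had an unadjusted p under 0.05 (Tnp2) and DESeq2 called 0 (background 1.13% higher, 0.291% lower). The log2 fold changes lay between -2.03 (Tnp2, SE 0.88, edgeR adjusted p = 0.0949) and -1.29 (Tnp1, SE 1.00, edgeR adjusted p = 0.346). As a share of the mean at 22.5 dpp, Prm1 stood at 45.2% and 39.3% in the 2 libraries at D16 and Prm3 at 72.9% and 4.40%. All 5 genes overlapped between the groups, because 22.5 dpp replicate 2 was low.

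At D30 all 5 genes were lower than at 36.5 dpp, and all 5 were called lower, at a background of 7.73% of genes called higher and 13.6% lower. Prm1 was 31.5-fold lower (log2 fold change -4.98, SE 0.84, edgeR adjusted p = 6.80e-05). It had 4152 ± 1426 CPM in the testes of 36.5 dpp (SD, n = 2) and 200 ± 142 CPM in the explants (SD, n = 4). Prm2 was 32.7-fold lower (-5.03, SE 1.00, edgeR adjusted p = 2.99e-04), with 7424 ± 267 CPM in testes and 346 ± 262 CPM in explants. Prm3 was 43.7-fold lower (-5.45, SE 0.85, edgeR adjusted p = 3.01e-05), with 194 ± 30.3 and 6.82 ± 3.94 CPM. Tnp1 was 29.2-fold lower (-4.87, SE 0.89, edgeR adjusted p = 1.42e-04), with 3881 ± 1380 and 202 ± 137 CPM. Tnp2 was 25.0-fold lower (-4.64, SE 0.74, edgeR adjusted p = 3.71e-05), with 3246 ± 990 and 198 ± 140 CPM. These folds come from the fit with TMM factors, so they differ from the ratios of the CPM means beside them.

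No library at D30 reached the lower one at 36.5 dpp for any of the 5 genes, and the share of all genes set apart in this way was not computed. Prm1 at D30 was 7.90%, 7.66% and 1.62% of its mean at 36.5 dpp in the fresh explants and 2.11% in the frozen ones. Prm3 was 6.04%, 4.25% and 1.74% in the fresh and 2.00% in the frozen explants. The 5 genes together made up between 0.0334% and 0.161% of all counts at D30. Scaled by library size alone the log2 fold changes ran from -4.83 (Prm3) to -4.04 (Tnp2), with all 5 called. The call of Prm2 was lost without either library of 36.5 dpp, without D30 fresh replicate 2 or 3 and without the frozen library (log2 fold changes -5.16 to -4.75), that of Tnp1 was lost without 36.5 dpp replicate 1 (-4.48) and with fresh libraries only (-4.67), and with 6.5 dpp fresh replicate 1 kept in the fit 3 of 5 were called.

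The change from D16 to D30 was also set against the change from 22.5 to 36.5 dpp in 1 test of their difference. None of the 5 genes was called by edgeR, all 5 had an unadjusted p under 0.05 and DESeq2 called 0 (background 0.270% higher, 1.40% lower). The differences in log2 fold change were -3.54 (SE 1.25) for Prm1, -3.33 (SE 1.45) for Prm2, -3.89 (SE 1.24) for Prm3, -3.58 (SE 1.27) for Tnp1 and -2.61 (SE 1.09) for Tnp2, all toward a smaller change in culture. The edgeR adjusted p-values ran from 0.0355 (Prm3) to 0.108 (Prm2). For Prm3 the difference was -0.77 without D16 replicate 1.

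The order of the groups by mean CPM was the same for Prm1, Prm2 and Tnp2: D4, 6.5 dpp, 10.5 dpp, D16, 22.5 dpp, D30 and 36.5 dpp. For Prm3 and Tnp1 the places of 6.5 and 10.5 dpp were exchanged. D30 did not overlap 22.5 dpp for Prm1, Prm2, Tnp1 and Tnp2, and overlapped it for Prm3, where 3.38 to 11.7 CPM at D30 stood beside 0.241 to 4.62 CPM at 22.5 dpp. D16 and 22.5 dpp overlapped for all 5 genes. The share of all genes without overlap was not computed for these or any other groups.

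The proportions among the 5 genes were also set side by side at D30 and 36.5 dpp. Per kb of transcript Prm1 was 22.1% to 24.4% of the sum of the 5 in the 4 libraries at D30, Prm2 25.0% to 36.2%, Tnp1 20.4% to 33.5%, Tnp2 15.8% to 22.6% and Prm3 0.724% to 1.31%. The level relative to Prm1, as log2 of the ratio per kb with 1 count added, was compared between D30 (n = 4) and 36.5 dpp (n = 2) by a two-sided exact permutation test over the 15 groupings, whose smallest p is 0.133. For Prm2 the difference was -0.09 (exact permutation p = 0.800), for Prm3 -0.33 (exact permutation p = 0.533) and for Tnp1 0.13 (exact permutation p = 0.800). For Tnp2 it was 0.33, from -0.59 ± 0.06 (SD, n = 2) at 36.5 dpp to -0.25 ± 0.20 (SD, n = 4) at D30, without overlap (exact permutation p = 0.133, adjusted over the 4 ratios 0.533). The design cannot reach a p under 0.05, so these values do not show that the proportions were alike.

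**Figure D3:**
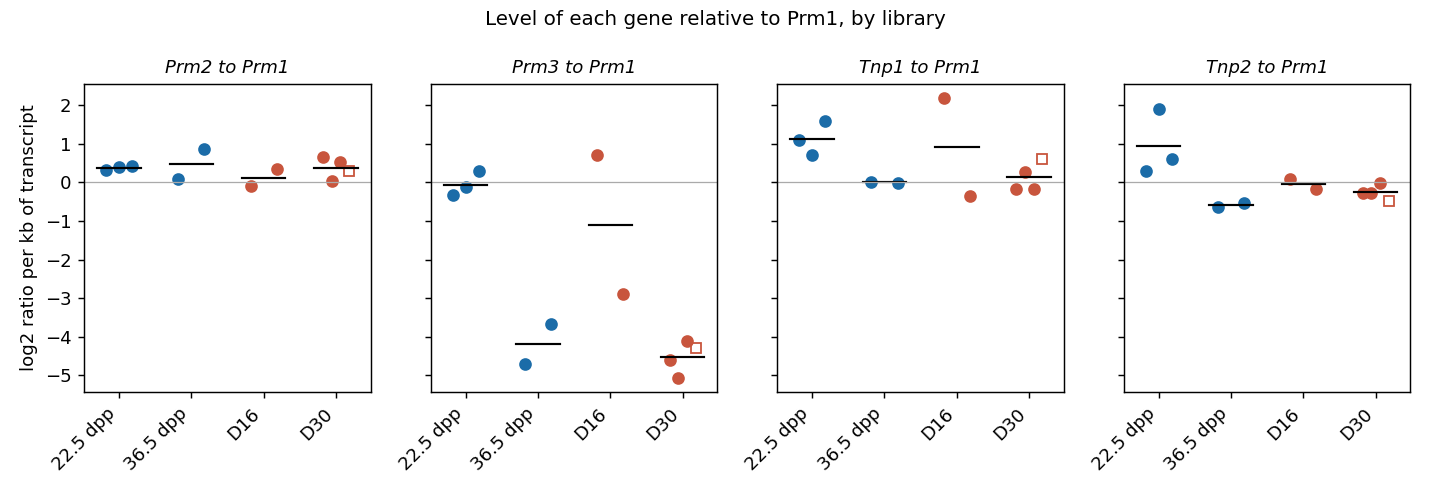
log2 ratio of each gene to Prm1, per kb of transcript and with 1 count added, by library at 22.5 dpp, 36.5 dpp, D16 and D30, with open squares for frozen tissue and lines for group means. Prm3 lies near Prm1 at 22.5 dpp and in 1 library at D16, and far below it at 36.5 dpp (mean -4.19) and D30 (mean -4.52).

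The other genes of the pathway were taken from lists fixed by role. The transcription regulators of the haploid phase include Crem, the activator of many spermatid genes, its partner Fhl5, and the germ cell forms of general factors Tbpl1, Gtf2a1l and Taf7l. From 22.5 to 36.5 dpp 3 of 9 were called higher, beside 8.87% of all genes. At D30 against 36.5 dpp 6 of 9 were called lower (Crem, Fhl5, Gtf2a1l, Sox30, Sox5 and Kif17), beside 13.6% of all genes, with a median log2 fold change of -2.27 beside -0.03 for all genes. Fhl5 had 294 ± 142 CPM in testes (36.5 dpp, SD, n = 2) and 23.2 ± 10.8 CPM in explants (D30, SD, n = 4), a log2 fold change of -4.28 (SE 0.89, edgeR adjusted p = 4.20e-04). Taf7l, with 36.0 ± 9.04 and 106 ± 13.0 CPM, had the only positive value of the list, 0.92 (SE 0.21), which was not called. Tbpl1 had -1.86 (SE 0.44) and was not called.

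Genes of messenger RNA storage and translation in spermatids had log2 fold changes of -2.20 to 0.88 at D30 against 36.5 dpp, beside -5.45 to -4.64 for the 5 genes. Of the 9, 6 were called higher from 10.5 to 22.5 dpp, beside 15.1% of all genes. From 22.5 to 36.5 dpp their log2 fold changes lay between -0.98 and 1.54. At D30 against 36.5 dpp 1 of the 9 was called lower, a share no higher than the 13.6% of all genes, and the median log2 fold change of the list was -1.67. That gene was Ybx2, the Y-box protein that binds and represses protamine messages, with 1894 ± 274 CPM in testes (36.5 dpp, SD, n = 2) and 638 ± 259 CPM in explants (D30, SD, n = 4; log2 fold change -2.19, SE 0.37, edgeR adjusted p = 6.32e-05). Ybx3 had -1.93 (SE 0.36) and Pabpc2 -2.20 (SE 0.51, edgeR adjusted p = 0.00108), neither called, and Celf1 had 0.88 (SE 0.25). With RLE factors in place of TMM 4 of the 9 were called lower (median -1.94), for which no share of all genes was computed.

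Of 6 germ cell histone variants 2 were called lower at D30 than at 36.5 dpp (13.6% of all genes), and 1 with library size only. H2al2a, a short H2A variant that takes part in the loading of transition proteins, had 124 ± 41.6 CPM in testes (36.5 dpp, SD, n = 2) and 8.32 ± 5.60 CPM in explants (D30, SD, n = 4; log2 fold change -4.50, SE 0.73, edgeR adjusted p = 6.77e-05). H1f7, a linker histone of spermatids, had 473 ± 80.2 and 44.0 ± 31.4 CPM (-4.04, SE 0.92, edgeR adjusted p = 9.39e-04). H2bc1, a variant already present in spermatocytes, had 1.55 ± 0.333 and 1.41 ± 0.442 CPM (-0.75, SE 0.57) and was not called. H1f6, H2ac1 and H2ab1 were not called either, with 2.23, 0.631 and 0.484 CPM at 36.5 dpp (means). At such low levels the lack of a call does not show that these genes were unchanged.

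Of 16 genes of histone removal and protamine modification 3 were called lower at D30, Chd5, Cdyl and Camk4, a share near the 13.6% of all genes, and the median was -1.24. With RLE factors 6 of the 16 were called lower (median -1.50), again without a share of all genes. Chd5, a chromatin remodeller of spermatids, had a log2 fold change of -3.73 (SE 0.56, edgeR adjusted p = 2.19e-05). Camk4, a kinase that phosphorylates Prm2, had -3.56 (SE 0.25, edgeR adjusted p = 1.38e-08). Phf7, the most read of these genes, had 3433 ± 1337 CPM in testes (36.5 dpp, SD, n = 2) and 1292 ± 622 CPM in explants (D30, SD, n = 4; -2.02, SE 0.50, edgeR adjusted p = 0.00169) and was not called, and neither was Hspa2, the chaperone of transition proteins (-1.74, SE 0.29), nor Sirt1 (0.70, SE 0.19).

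**Figure D4:**
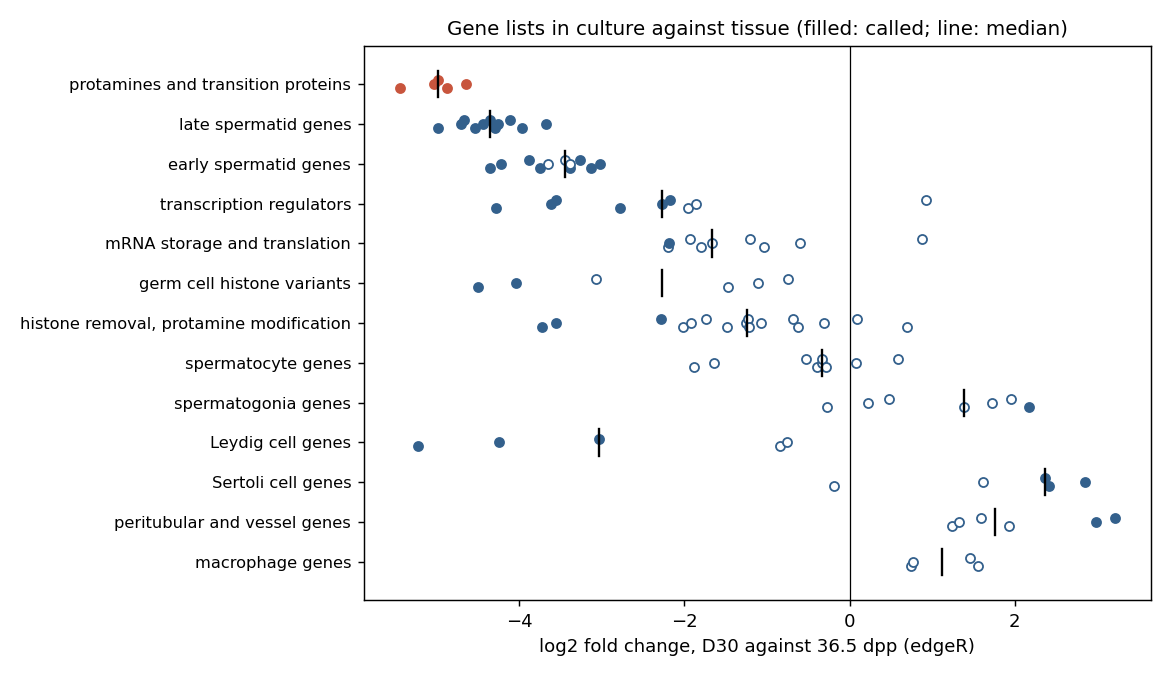
log2 fold change of D30 against 36.5 dpp (edgeR) for every gene of each list, filled where called, with a line at the median of the list. The protamine and transition protein genes (median -4.98) and the late spermatid genes (median -4.36) lie at the low end, the spermatocyte genes near 0 (median -0.34, or 0.27 with library size only) and the Sertoli cell genes above it (median 2.37).

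Markers of the cells that the tissue can hold were read beside the 5 genes. All 11 late spermatid genes were called lower at D30 than at 36.5 dpp (median -4.36, against -4.98 for the 5 genes), from -4.99 for Tssk6, a kinase needed for histone removal, to -3.68 for Akap3, a protein of the sperm tail. Of 11 early spermatid genes 8 were called lower (median -3.45). The 9 spermatocyte genes lay between -1.89 (Ldhc, the germ cell lactate dehydrogenase, SE 0.45) and 0.58 (Dmc1, the meiotic recombinase), with a median of -0.34 that turned to 0.27 with library size only. Sall4 of the 7 spermatogonia genes was called higher (2.17, SE 0.42). With library size only, where 8.39% of all genes were called lower, those called lower were 8 of 11 late spermatid genes, 4 of 11 early spermatid genes, 4 of 9 transcription regulators, 1 of 6 histone variants and 2 of 16 genes of histone removal, Ybx2 of the storage genes was no longer called (-1.57), and the medians of these 6 lists stayed below 0.

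Somatic cell markers also differed between D30 and 36.5 dpp. By summed CPM the Leydig cell genes were lower at D30, as the 5 genes were, and the other somatic lists were higher. Summed over 5 Sertoli cell genes, the level was 778 to 975 CPM at 36.5 dpp and 5635 to 9583 CPM at D30, with 3 of 5 called higher (Cldn11, Clu and Dhh), beside 7.73% of all genes, or 17.4% with library size only. Clu made up most of this sum (671 and 5626 CPM, means). Inha (1.62, SE 0.21) and Rhox5 (-0.19, SE 0.56) were not called. The 6 peritubular and vessel genes summed to 81.6 to 89.5 CPM at 36.5 dpp and 364 to 586 CPM at D30, with Pecam1 and Cdh5 called higher. The 5 Leydig cell genes summed to 1549 to 1925 CPM and 317 to 571 CPM, with Cyp11a1, Insl3 and Cyp17a1 called lower. Star (110 and 101 CPM, means) and Hsd3b1 (215 and 187 CPM) had log2 fold changes of -0.76 (SE 0.26) and -0.84 (SE 0.26) and were not called. The 4 macrophage genes summed to 34.6 to 43.0 CPM and 91.3 to 145 CPM, with log2 fold changes of 0.74 to 1.55. No gene of these lists was at or under 3 counts in every library of either group. Their part in the lower level of the 5 genes was not tested.

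Set against the late spermatid genes in the same library, the 5 genes had lower ratios at D30 than at 36.5 dpp. Their summed CPM was 1.77 and 1.55 times that of the 11 late spermatid genes at 36.5 dpp, and 1.11, 1.12 and 0.865 times in the fresh and 0.744 times in the frozen explants at D30. At 22.5 dpp it was 0.0706, 0.0406 and 0.0992 times. In D16 replicate 1, where late spermatid genes summed to 278 CPM, it was 0.0419 times, and in D16 replicate 2, where they summed to 11.9 CPM, it was 0.418 times. The 4 ratios at D30 lay below both at 36.5 dpp and above all 3 at 22.5 dpp. These ratios were computed after the values were seen and were not tested.

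**Figure D5:**
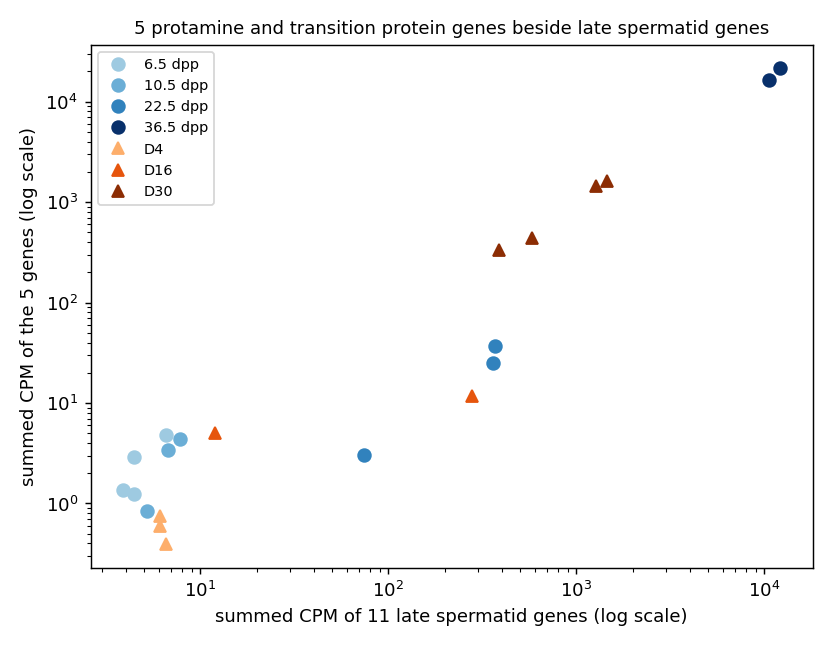
Summed CPM of the 5 genes against the summed CPM of 11 late spermatid genes, both on log axes, 1 point for each of the 21 libraries, circles in vivo and triangles in culture. The libraries at D30 (334 to 1613 CPM for the 5 genes) lie between those at 22.5 dpp (3.01 to 36.7 CPM) and those at 36.5 dpp (16424 and 21372 CPM).

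The genes beside the 5 were read as well. Socs1, an inhibitor of cytokine signalling 2.40 kb beyond the Tnp2 end of the chromosome 16 cluster, had 5.09 CPM (mean, n = 3) at 22.5 dpp, 3.33 CPM (mean, n = 2) at 36.5 dpp and 5.96 CPM (mean, n = 4) at D30. From 22.5 to 36.5 dpp the log2 fold changes of Clec16a, Socs1, Rmi2 and Litaf lay between -1.04 and 0.14 (Clec16a, -0.37 with library size only). At D30 against 36.5 dpp Litaf was called higher (2.57, SE 0.20), and Clec16a, Socs1 and Rmi2 lay between -0.69 and 0.19 (Socs1). Beside Tnp1, the nearest protein-coding genes lay 140.21 kb or more away. Tns1 (2.49, SE 0.38) was called higher at 36.5 than at 22.5 dpp and lower at D30 than at 36.5 dpp (-2.30, SE 0.35), Igfbp2 was called lower (-2.11, SE 0.36) and Igfbp5 higher (6.75, SE 0.60) at D30 than at 36.5 dpp, and Rufy4 had 0.22 and 0.11.

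A gene still nearer to Tnp1 was also called in the direction of Tnp1 in both comparisons. 1700027A15Rik (Entrez 69449, chr1:73016036-73025508) starts 136 bases from the Tnp1 start and runs the other way. It had 0.951, 0.548 and 1.99 CPM at 22.5 dpp, 556 and 351 CPM at 36.5 dpp, and 27.8, 44.7 and 5.06 CPM in the fresh and 19.5 CPM in the frozen explants at D30. It rose by 9.11 (SE 0.88) on the log2 scale from 22.5 to 36.5 dpp and had -4.83 (SE 0.65, edgeR adjusted p = 6.90e-06) at D30 against 36.5 dpp, beside 9.64 and -4.87 for Tnp1. The order of libraries at D30 was also that of Tnp1, with fresh replicate 2 highest and fresh replicate 3 lowest. The libraries kept strand, but the strand setting of the counting is not given in the sources used here, so reads of these neighbours may not be fully told apart. This gene was looked at for its place beside Tnp1, not for its values.

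Across the 21 libraries the genes most like Prm1, by Pearson's r of log2(CPM + 1), were Spem1 (0.9945), Cabs1 (0.9935) and 1700034E13Rik (0.9890), where Spem1 is a gene of late sperm maturation and Cabs1 encodes a calcium-binding protein of elongate spermatids. For Prm2 they were Cabs1 (0.9907), Spem1 (0.9905) and Spem2 (0.9857). For Tnp1 they were Cabs1 (0.9943), Hmgb4 (0.9937) and Rnf133 (0.9902), and for Tnp2 Cabs1 (0.9941), Spem1 (0.9920) and Hmgb4 (0.9896).

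For Prm3 the closest were 3 other genes, 1700054A03Rik (0.9969), 4930471G03Rik (0.9953) and Gm38691 (0.9948). 1700054A03Rik had 0.691 CPM at 22.5 dpp, 0.355 CPM at D16, 1.56 CPM at D30 and 11.1 CPM at 36.5 dpp (means), a shallower course than that of Cabs1, with 3.13, 0.831, 56.0 and 722 CPM. Among the 5 genes themselves r was 0.987 to 0.998 for the 6 pairs without Prm3 and 0.946 to 0.957 for the 4 pairs with it. The points share 7 conditions, and both genes of a pair share each library's depth, so these values are a description.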

How the data were processed

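Polyadenylated RNA was sequenced by the authors as stranded single reads of 50 bases, aligned to GRCm38 with STAR 2.7.3a and counted per gene with HTSeq 0.12.4 (mode intersection-nonempty). The strand setting is not given in the sources used here. The deposited values are raw counts for 27466 genes, keyed by Entrez ID, of which 27373 matched the RefSeq table. The 5 genes were chosen by name, and these genes and all lists were chosen with earlier results of these data known.

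1 edgeR 4.0.16 fit (R 4.3.3; TMM, filterByExpr, quasi-likelihood) of 7 condition groups over 21 libraries gave 9 comparisons. Each SE is the size of the log2 fold change divided by the square root of the test's F statistic. Library totals ran from 28351546 to 69029328, and intervals for pooled counts (95%, exact) cover counting error only. Alternatives were RLE factors, library size only, no filter, DESeq2 1.42.0, other library sets, a looser threshold, a replicate block and leaving out each library. Outside the 5 genes, named genes were the extreme log2 fold changes and highest mean CPM of each list, the nearest protein-coding neighbours and the 3 most correlated genes for each of the 5. Genes called at D30 on lists with few calls were named after their values were seen. On simulated counts for D30 against 36.5 dpp with 200 of 18838 genes changed 8-fold, 83.5% were called, and 0 unchanged genes were. Changes up and down were equally many there, and all other genes had the same mean in every group. The simulation thus held no shift between scalings like that in the data, and it cannot speak to calls made under such a shift. Python 3.11.15 with scipy 1.17.1 gave the exact permutation tests. 6.5 dpp fresh replicate 1 and the copy, replicate 3, were not used. Protein sequences are not shown.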

Additional observations from a re-analysis of the deposited data

Results flagged for a closer look

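For each of the 5 genes the highest and lowest library was compared with the rest in the 2 groups of 4 libraries (6.5 dpp and D30, 10 sets in all). Chance alone would mark about 1 separate set in 20, but these sets share libraries and the 5 genes moved together. The fresh library at 6.5 dpp stood apart from the 3 frozen ones for 3 genes, with 1.94 CPM for Prm2, 0.125 CPM for Prm3 and 0.877 CPM for Tnp2. For Prm3 all 3 frozen libraries had 0 counts, so any read in the fresh library would have marked it. No library at D30 stood apart for any of the 5 genes.

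The library labelled 6.5 dpp fresh replicate 1, which entered no comparison, held more of 4 of the 5 genes than any other library at 6.5 dpp. It had 1.14 CPM of Prm1, 1.98 CPM of Prm3, 3.24 CPM of Tnp1 and 1.79 CPM of Tnp2, against highest values of 0.877, 0.125, 2.68 and 0.877 CPM in the 4 libraries used. Its early spermatid genes summed to 131 CPM and its late spermatid genes to 199 CPM, beside at most 9.66 and 6.56 CPM in those libraries.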

How the results depend on the processing

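Of 684 log2 fold changes of single genes under alternatives, 629 kept their direction and side of the threshold. All 5 genes were called in 36.5 against 22.5 dpp under every setting but 1 (Prm3 not called with 6.5 dpp fresh replicate 1 kept), with log2 fold changes from 6.21 to 11.57, and those of D30 against 36.5 dpp ran from -5.87 to -4.04. The calls in 22.5 against 10.5 dpp (2 of 5) were 1 with library size only, 1 with a replicate block, 0 with 6.5 dpp fresh replicate 1 kept, 0 with only the groups compared, 5 at an adjusted p under 0.05 with no fold, and 0 to 3 leaving out 1 library. The replicate block changed no other count of calls. Replicate numbers do not pair the samples (median r of deviations 0.0255 over 64 same-numbered pairs, -0.737 to 0.757). For D30 against 36.5 dpp 3 were called with 6.5 dpp fresh replicate 1 kept and 3 to 5 leaving out 1 library. DESeq2 called 2 for D16 against D4 and 4 for D30 against D16, and the looser threshold 5 and 4, and 1 for the difference between culture and in vivo. The cause was not tested.

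Direction turned in 10.5 against 6.5 dpp for Prm2 (-0.08) and Tnp2 (-0.66) with 6.5 dpp fresh replicate 1 kept, for Prm1 (-0.49), Prm2 (-1.13) and Tnp2 (-1.0) with fresh libraries only, and on leaving out 1 library, where Prm3 ran from -1.35 to 3.28, Tnp1 from -0.82 to 0.09 and Prm2 from -0.37 to 2.24. Prm3 in D4 against 10.5 dpp ran from -1.33 to 0.14. None of these was called. Leaving out 1 library, the ratio to Prm1 ran from -0.49 to 0.30 for Prm2, from -0.85 to 0.19 for Prm3 and from -0.02 to 0.24 for Tnp1, turning sign in each. Counts of at most 6 for Prm3 at 6.5 dpp, 10.5 dpp and D4 limit what can be said there.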
